A study of Mus musculus with 2 samples.

Results

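Promoters that stand alone in the genome were examined for open chromatin in LβT2 cells. A protein-coding gene of chromosomes 1 to 19 was included when no protein-coding transcription start site (TSS) of another gene lay within 5 kb of any of its own coding TSSs in the GENCODE vM21 annotation of GRCm38. Of 20722 coding genes, 16384 met this rule, and the remaining 4338 had a coding neighbour within 5 kb. The rule used positions only and no measured value. It removes coding neighbours in either orientation, so that noncoding partners may remain: 1247 of the 16384 genes (7.61%) had a TSS of a noncoding gene on the other strand within 1000 bp upstream. The promoter region of a gene was 500 bp on each side of each coding TSS, and a gene was put in a class by whether a deposited peak overlapped any of its regions by at least 1 bp in both replicates, in 1 or in neither. On either side of the distance limit, Hsd17b14 lay 5004 bp from the nearest coding TSS, that of Plekha4, and was included, whereas Stab1 lay 4995 bp from Nt5dc2 and was not. Both had a peak in neither replicate.

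Open chromatin had been mapped by ATAC-seq, in which a transposase inserts sequencing adapters where DNA is not covered by nucleosomes. LβT2 is 1 immortalized mouse cell line derived from gonadotropes, the anterior pituitary cells that secrete luteinizing and follicle-stimulating hormone. Both samples, at passage 21, received the same treatment: pulses of 2 nM gonadotropin-releasing hormone (GnRH) every 2 h, 4 in all, over 6 h and 45 min, with harvest 45 min after the last pulse. No untreated sample was analysed here, and nothing in the labels says whether the 2 replicates were separate cultures. The values therefore describe the promoter state under pulsatile GnRH and do not show an effect of GnRH.

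Most mammalian promoters are of 1 of 2 broad kinds. Those in CpG islands keep many CG dinucleotides, are mostly free of DNA methylation, and serve genes used in many cell types as well as many developmental regulators. Those poor in CpG tend to serve genes of a single tissue, often with a TATA box, and are opened by cell type-specific transcription factors. Developmental regulators with CpG islands are often kept silent by Polycomb proteins in cells that do not use them. CpG content was measured as the observed/expected ratio, the number of CG dinucleotides times the length divided by the product of the C and G counts. A gene was called CpG-rich when this ratio was at least 0.6 and the GC content at least 50% on average over its regions.

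Examples of 6 promoters show the range of sequences behind the classes, each as the 200 bp upstream of the TSS in GRCm38, read in the direction of transcription. Rgs2, Gnrhr and Cga had a peak in both replicates, whereas Nfil3, Klf14 and Fshb had one in neither. Capitals mark CG dinucleotides. None of the 6 stretches overlapped an annotated exon.
Rgs2 (chr1:144004162-144004361, minus strand): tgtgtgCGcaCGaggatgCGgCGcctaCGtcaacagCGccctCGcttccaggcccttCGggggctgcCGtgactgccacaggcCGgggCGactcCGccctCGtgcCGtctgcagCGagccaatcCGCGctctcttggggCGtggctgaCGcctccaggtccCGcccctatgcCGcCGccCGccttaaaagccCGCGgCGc
Gnrhr (chr5:86197902-86198101, minus strand): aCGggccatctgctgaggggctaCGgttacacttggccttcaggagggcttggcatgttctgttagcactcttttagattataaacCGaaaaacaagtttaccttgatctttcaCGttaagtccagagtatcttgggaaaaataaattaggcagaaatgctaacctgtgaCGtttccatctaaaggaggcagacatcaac
Cga (chr4:34893579-34893778, plus strand): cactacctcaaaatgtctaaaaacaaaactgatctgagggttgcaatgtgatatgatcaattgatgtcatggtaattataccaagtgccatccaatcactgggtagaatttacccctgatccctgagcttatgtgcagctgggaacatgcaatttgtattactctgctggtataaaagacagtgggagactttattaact
Nfil3 (chr13:52981074-52981273, minus strand): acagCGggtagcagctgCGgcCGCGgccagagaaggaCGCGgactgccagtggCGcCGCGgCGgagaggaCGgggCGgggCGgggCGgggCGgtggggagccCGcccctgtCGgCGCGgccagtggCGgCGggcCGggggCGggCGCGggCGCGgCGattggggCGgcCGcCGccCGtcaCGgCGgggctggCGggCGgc
Klf14 (chr6:30959079-30959278, minus strand): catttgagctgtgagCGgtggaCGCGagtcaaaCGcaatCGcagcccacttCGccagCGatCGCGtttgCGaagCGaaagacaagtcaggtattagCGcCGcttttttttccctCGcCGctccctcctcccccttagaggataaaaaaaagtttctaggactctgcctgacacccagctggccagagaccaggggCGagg
Fshb (chr2:107059657-107059856, minus strand): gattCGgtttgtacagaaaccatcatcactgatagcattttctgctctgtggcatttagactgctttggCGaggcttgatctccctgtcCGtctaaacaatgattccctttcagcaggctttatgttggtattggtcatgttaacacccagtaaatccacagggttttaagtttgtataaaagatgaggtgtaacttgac
The 200 bp of Rgs2, a regulator that shuts down G protein signals, held 26 CG dinucleotides. Those of Nfil3, a basic leucine zipper repressor, held 36 at a GC content of 85.0%. The stretch of Klf14, a zinc finger factor whose region had the highest CpG ratio of all genes without a peak, held 16. The stretch of Gnrhr, the GnRH receptor, held 5, that of Fshb, the beta subunit of follicle-stimulating hormone, 3, and that of Cga, the alpha subunit shared by the pituitary glycoprotein hormones, 0. The letters TATAAA occurred in the stretches of Gnrhr, Cga and Fshb and in none of the other 3. Peak class and the CpG content of the 200 bp shown thus crossed in these examples. Cga, with a peak, had no CG there, and Nfil3, without one, had 36. The Cga summits, at -315 and -264 bp, lay outside its stretch, and its full regions held 3 CG dinucleotides on average.

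The replicates gave lists of 58519 and 64984 peaks. The weakest peak in each rested on 10 and 11 tags at the summit, and the median peak on 14 and 16 tags, against a background of 3.05 and 3.54 tags, so that a promoter without a peak is one below that limit and not one shown to be closed. The background, and with it the folds and q values given here, depends on the genome size set in peak calling, stated as that of the fruit fly, and the effect of this setting was not tested. The sequence at the summit occurred at more than 1 place in the genome for 66.9% of replicate 1 and 61.1% of replicate 2 peaks over the whole genome. Among the genes without a coding neighbour this was so for 331 of the 4292 highest peaks of replicate 1 (7.71%) and 324 of those of replicate 2 (7.55%), counted over genes with a peak in both. Results are given with and without such multi-copy summits where they matter.

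A peak in both replicates was found for 4292 of the 16384 genes without a coding neighbour (26.2%), beside 30.1% of all coding genes. In replicate 1, 4475 genes had a peak (27.3%, against 31.3% of all coding genes), and in replicate 2, 6312 did (38.5%, against 43.5%). The mean share was 32.9% ± 7.93 (SD, n = 2). A peak in 1 replicate only was seen for 183 genes in replicate 1 and 2020 in replicate 2, together 13.4% of the genes against a background of 14.6%. The 1-replicate class was thus almost entirely a replicate 2 class: 95.9% of the genes with a peak in replicate 1 also had one in replicate 2, whereas 68.0% of those of replicate 2 had one in replicate 1. Neither list held a peak for 9889 genes (60.4%, against 55.3% of all coding genes). With 1 condition and 2 replicates no groups of samples could be compared, and genes are not replicates, so all shares and medians are descriptions without a test.

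Genes with a peak had more CpG than genes without. The median CpG observed/expected ratio was 0.664 (quartiles 0.516 and 0.793) for genes with a peak in both replicates and 0.673 (0.525 and 0.805) for those with a peak in replicate 2 only. It was 0.291 (0.151 and 0.540) for the 9889 genes with a peak in neither. Over all coding genes the medians were 0.673 for both and 0.298 for neither, close to these values. The 183 genes of replicate 1 only lay between, at a median of 0.479. The weaker peaks that only replicate 2 detected thus fell at promoters with a similar median CpG content to those found in both, while the few peaks seen only in replicate 1 did not.

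GC content moved in the same order but over a narrower range. Its median was 57.2% for genes with a peak in both, 57.9% for replicate 2 only, 54.2% for replicate 1 only and 50.6% for neither. The number of CG dinucleotides per region was 56.3 in the median gene with a peak in both and 17.7 in the median gene with neither. CpG-rich genes made up 59.8%, 61.0%, 30.6% and 19.2% of the 4 classes in the same order. Counted per replicate, the median observed/expected ratio of genes with a peak exceeded that of genes without by 0.332 ± 0.0568 (SD, n = 2), and the median GC content by 5.79 ± 1.28 percentage points. Both differences were several times the spread between replicates.

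The share of genes with a peak climbed along the CpG scale in both replicates. Below a ratio of 0.2, 6.67% of 3866 genes had a peak in replicate 1 and 7.17% in replicate 2. From 0.2 to 0.4 the shares were 11.7% and 15.8%, and from 0.4 to 0.6 they were 33.2% and 47.0%. From 0.6 to 0.8 they reached 44.6% and 63.7%, and at 0.8 or more 47.1% and 69.6% of 2189 genes. The steepest step lay between the second and the third range, and the last step was small in replicate 1.

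With single-copy summits only, the lowest range dropped to 1.58% and 1.63%, whereas the highest kept 46.3% and 69.0%. Most peaks at the promoters poorest in CpG therefore had summits in sequence that occurs more than once. The 5755 CpG-rich genes had a peak in 45.5% and 66.0% of cases, against 17.4% and 23.7% of the 10629 others, a difference of 35.2 percentage points ± 10.1 (SD, n = 2).

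**Figure D1:**
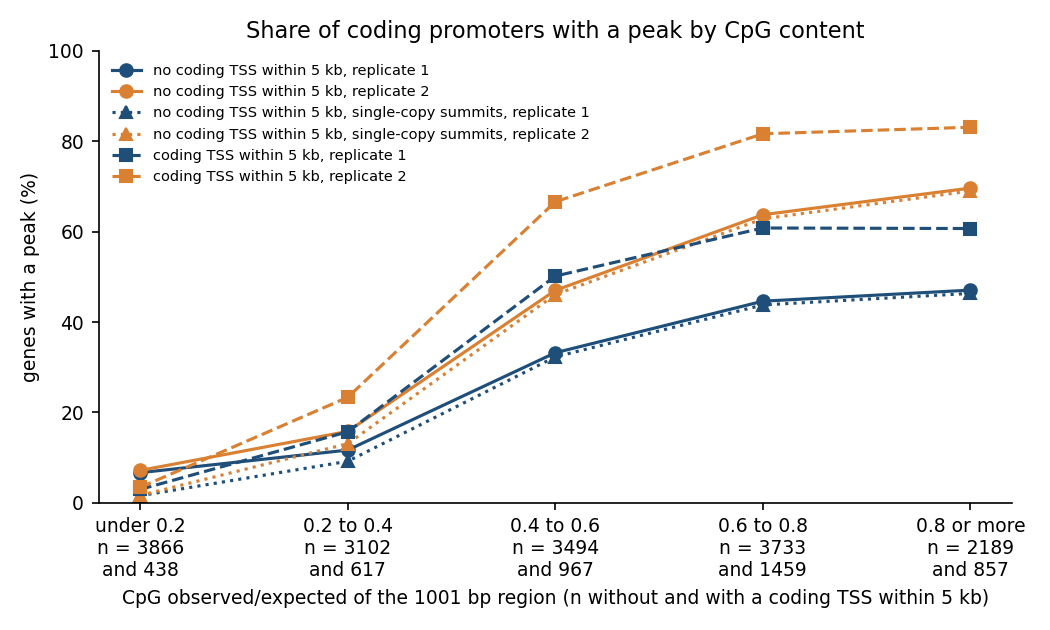
Share of genes with a peak (%, y axis) in 5 ranges of CpG observed/expected ratio (x axis), for replicate 1 (blue) and replicate 2 (orange). Circles are genes without a coding TSS within 5 kb, triangles the same genes counted with single-copy summits only, and squares genes with a coding TSS within 5 kb. The circles begin at 6.67% and 7.17% and end at 47.1% and 69.6% for the 2 replicates, and the squares lie above them in every range but the lowest.

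Within the CpG ranges from 0.4 to 0.6 and from 0.6 to 0.8, the share with a peak was highest at a GC content of 50 to 55%. From 0.4 to 0.6, a peak in both replicates was found for 17.6% of genes under 45% GC, 34.7% at 45 to 50% and 37.9% at 50 to 55%. Among genes with a ratio from 0.6 to 0.8, the share with a peak in both replicates was 43.4% at a GC content of 45 to 50%, 51.8% at 50 to 55%, 49.1% at 55 to 60%, and 36.6% at 60% or more. From 0.4 to 0.6 it was 29.9% at 55 to 60% GC and 22.1% at 60% or more. Shares at 60% GC or more were thus lower than at 50 to 55% for the same CpG range, also at 0.8 or more, with 53.2% of 124 genes and 43.9% of 1653. The 167 genes with a ratio of at least 0.6 but a GC content under 50% had a peak in both at 42.5%, close to the 44.6% of CpG-rich genes. The 5066 genes with the GC content but not the ratio had one at 22.2%, and the 5396 under both limits at 9.80%.

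Genes without a coding neighbour had a peak less often than the 4338 genes with one. The latter had a peak in 46.2% of cases in replicate 1 and 62.4% in replicate 2, higher by 18.8 and 23.9 percentage points (21.3 ± 3.55, SD, n = 2). They were also richer in CpG, with a median ratio of 0.622 against 0.476. Within CpG ranges the gap was 17.0 and 19.6 points from 0.4 to 0.6, 16.2 and 17.9 points from 0.6 to 0.8, and 13.6 and 13.5 points at 0.8 or more. Below 0.2 it had the other sign, with shares of 2.97% and 3.42% for genes with a neighbour against 6.67% and 7.17%. With single-copy summits only, the latter shares were 1.58% and 1.63%, below those of genes with a neighbour counted with all summits.

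By distance to the nearest coding TSS, the higher shares lay within the first 1 kb. Genes with another coding TSS within 1 kb had a peak in 57.8% and 76.1% of cases, and those at 1 to 5 kb in 26.6% and 39.2%. Among the genes without a neighbour, the shares were 23.1% and 33.9% at 5 to 10 kb and 30.3% and 40.3% beyond 100 kb. The shares at 1 to 5 kb were close to those of all genes without a neighbour, 27.3% and 38.5%. The regions of 2 genes within 1 kb of each other overlap, and 1 peak can count for both. The part of this in their higher share was not tested. For CpG-rich genes the shares were 46.3% and 71.3% at 5 to 10 kb, 48.1% and 67.9% at 20 to 50 kb, and lowest, 41.1% and 57.2%, beyond 100 kb.

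A noncoding TSS in divergent orientation went with more peaks. Of the 1247 genes with one within 1000 bp upstream, 45.4% had a peak in replicate 1 and 61.7% in replicate 2, against 25.8% and 36.6% of the 15137 without. Such partners were also more common at CpG-rich promoters, at 12.6% against 4.92%. Among CpG-rich genes the shares were 53.2% and 72.9% with and 44.4% and 65.0% without a noncoding partner. Among the others they were 34.6% and 46.3% against 16.6% and 22.5%. Below a CpG ratio of 0.2, where 71 genes had such a partner, the shares of 7.04% in each replicate lay near the 6.67% and 7.17% without.

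The number of annotated TSSs per gene bears on these shares, since each adds a region in which a peak can fall. A peak in both replicates was found for 20.7% of the 6182 genes with 1 TSS, 25.9% of the 7033 with 2 or 3, and 37.5% of the 3169 with 4 or more. Counted per replicate, the spread was narrower among CpG-rich genes than among the others. CpG-rich genes had 42.3% with 1 TSS and 51.6% with 4 or more in replicate 1, and 60.6% and 74.4% in replicate 2. The others had 9.61% and 31.6% in replicate 1, and 12.2% and 42.8% in replicate 2. For genes with 1 TSS, whose sequence is not an average, the median CpG ratio was 0.736 for a peak in both and 0.264 for neither.

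Peaks found in both replicates were higher and wider than those found in 1. In replicate 2 the median −log10 q was 17.1 for genes with a peak in both and 6.21 for genes with a peak in replicate 2 only, and the median fold enrichment over background was 7.28 and 4.41. In replicate 1 the medians of −log10 q were 7.74 and 2.88 for both and for replicate 1 only. The median width was 604 bp against 304 bp in replicate 2 and 403 bp against 214 bp in replicate 1. Of the 3935 genes whose highest peak in both replicates had a single-copy summit, 94.9% had more tags in replicate 2. The −log10 q values of the replicates correlated across these genes with a Spearman rho of 0.750, a description across genes, which are not independent replicates.

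Among promoters with a peak, the median peak height was lower at the low end of the CpG scale. Among single-copy summits, the median tag count at the summit was 16 in replicate 1 below a CpG ratio of 0.2 and 19 in each of the 3 ranges above 0.4. In replicate 2 it was 20 below 0.2 and 26, 27 and 28 in the 3 ranges above 0.4. The quartiles overlapped widely, for example 20 to 38 tags from 0.6 to 0.8 and 15 to 30.5 tags below 0.2 in replicate 2. The median −log10 q below 0.2 and at 0.8 or more was 4.80 and 6.97 in replicate 1, and 6.93 and 13.4 in replicate 2. No list holds a summit below 10 or 11 tags, so that these medians leave out weaker signal.

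Summits lay just upstream of the TSS. For genes with a peak in both replicates the median summit was 48 bp upstream in replicate 1 and 39 bp upstream in replicate 2, and 65.1% and 65.4% of summits were upstream. Within 100 bp of the TSS lay 50% and 55.5% of them. CpG-rich promoters had a larger share of upstream summits, 68.7% and 69.4%, than the others, 59.7% and 59.3%. The summits of the 2 replicates were a median of 55 bp apart, and 67.6% of the pairs were within 100 bp.

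**Figure D2:**
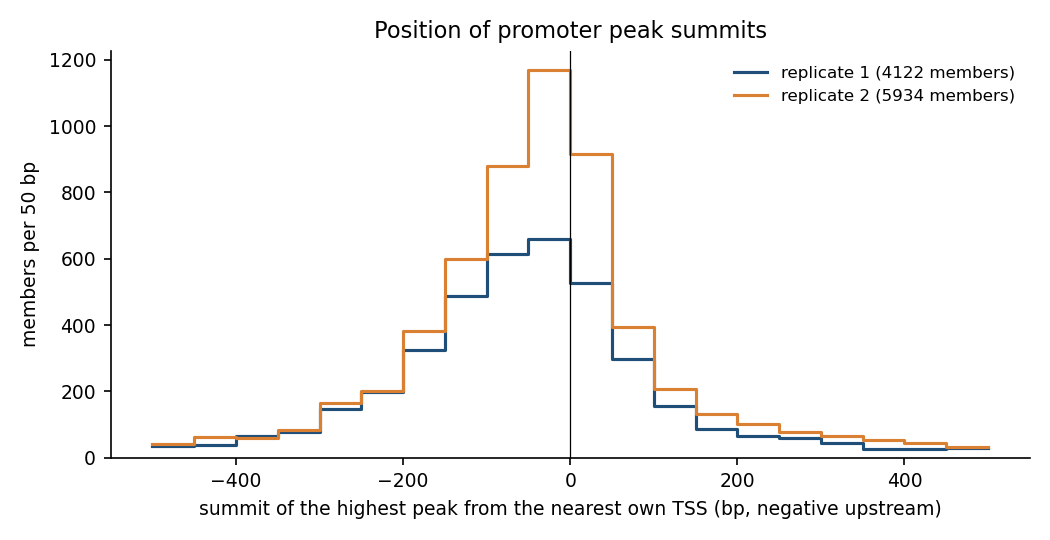
Number of genes per 50 bp (y axis) by distance of the summit of the highest promoter peak from the nearest own TSS (x axis, bp, negative upstream), single-copy summits only, for replicate 1 (blue) and replicate 2 (orange). Both curves are highest in the 50 bp just upstream of the TSS, with 661 and 1170 genes, and fall off faster downstream than upstream.

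Genes were grouped by symbol into 38 families, whose shares with a peak differed widely. Chemosensory receptors were at the low end. Of 1028 olfactory receptor genes, which are each used by few olfactory neurons, 3 had a peak in both replicates and 1021 in neither. All 47 taste and trace amine receptors and all 36 beta-defensins, antimicrobial peptides of epithelia, had a peak in neither, as had 312 of 320 vomeronasal receptors. None of these genes was CpG-rich, and the median CpG ratio of the chemosensory receptors was 0.116. The 3 olfactory receptor genes with a peak in both were Olfr1033, Olfr543 and Olfr1508. Olfr1033 had its summits in sequence with 38 and 50 copies in the genome, while Olfr543 and Olfr1508 had single-copy summits of 17 and 25 tags and of 12 and 13 tags. With the summit required inside the region, Olfr1033 and Olfr543 had a peak in neither.

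Other tissue-restricted families were nearly as low, beside a share of 60.4% in neither over all genes without a coding neighbour and of 92.0% over those with a CpG ratio under 0.2. Keratins and keratin-associated proteins, which build epithelia and hair, had a peak in neither replicate for 91 of 95 genes. For cytochromes P450, which oxidize steroids, lipids and drugs, the count was 84 of 93, for serpins 50 of 54, for chemokines and their receptors 42 of 44, and for collagens 35 of 37. The median CpG ratio was 0.155 for the cytochromes and 0.151 for the serpins. Both families thus lay near the 92.0% of genes with a ratio under 0.2. With single-copy summits only, 97.7% of those genes had a peak in neither. The exceptions were few: Cyp20a1 (−log10 q of 10.2 and 39.5 in replicates 1 and 2), Cyp2s1 (7.74 and 21.0) and Cyp4f16 (7.74 and 12.5) among the cytochromes, and Serpine2 (16.6 and 13.4), an inhibitor of thrombin and plasminogen activators, among the serpins. Col22a1, Cxcl10 and Krtap6-2 were the single members of their families with a peak in both.

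At the high end stood complexes that every cell needs. Of 219 members among ribosomal proteins, mitochondrial ribosomal proteins, proteasome subunits, translation initiation factors, oxidative phosphorylation genes and RNA polymerase subunits, 115 had a peak in both replicates (52.5%, against 26.2% of all genes without a coding neighbour), 50 in replicate 2 only and 51 in neither. CpG-rich promoters made up 73.5% of them, against 35.1%. Of the 161 CpG-rich members, 93 had a peak in both (57.8%, against 44.6% of all CpG-rich genes). Only 57.0% of the coding genes of these complexes lack a coding neighbour, compared with 92.6% of the chemosensory receptors. Among them, 24 of 41 initiation factors and relatives, 18 of 31 proteasome genes, 27 of 52 oxidative phosphorylation genes and 23 of 45 cytosolic ribosomal proteins had a peak in both. Neither list held a peak for the CpG-rich promoters of Rpl23, Rps7 and Rpl13 (ribosome), Psmc1 and Psmd7 (proteasome), Uqcrfs1 and Cox6a1 (respiratory chain) or Eif1b and Eif4ebp2 (translation).

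Regulators of the cell cycle and of traffic were similar. Cyclins, cyclin-dependent kinases and relatives had a peak in both for 20 of 37 members (54.1%). Rab GTPases, which direct vesicle traffic, had one for 25 of 46 (54.3%), against 26.2% of all genes without a coding neighbour. MAP kinase pathway kinases, which carry the GnRH signal among others, had one for 20 of 39 (51.3%). CpG-rich promoters made up 78.4%, 60.9% and 66.7% of these families, against 35.1%. Of the CpG-rich members, 65.5%, 64.3% and 53.8% had a peak in both, against 44.6% of all CpG-rich genes. Zinc finger genes named Zfp had a peak in both for 155 of 329 (47.1%). These had the same share of CpG-rich promoters as all genes, 34.3% against 35.1%, and their 216 promoters that were not CpG-rich had a peak in both at 44.0%, compared with 16.2% of all such genes. The groups were not matched for CpG ratio. Its median was 0.510 over all 329 Zfp genes and 0.284 over all genes that were not CpG-rich. From 0.4 to 0.6, 31.6% of all genes without a coding neighbour had a peak in both. The summit of at least 1 replicate was multi-copy in 28 of the 155.

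Homeobox, Fox, Sox and Pax genes combined CpG-rich promoters with few peaks. Of 189 homeobox, Fox, Sox, Pax, T-box, Gata, Klf and Zic genes, 126 were CpG-rich (66.7%), and 29 had a peak in both replicates and 146 in neither. Of the CpG-rich ones 23 had a peak in both (18.3%) and 95 in neither (75.4%), whereas of all 5755 CpG-rich genes 44.6% had a peak in both and 33.0% in neither. Homeobox genes were lowest, with 81 of 95 in neither. Those with a peak in both included Pbx3 (−log10 q of 19.7 and 32.6), a partner of Hox proteins, and Lhx2 (11.95 and 25.1). T-box, Gata, Klf and Zic genes were not low in this way: 11 of 33 had a peak in both and 21 in neither. The share in both was 33.3%, against 26.2% of all genes without a coding neighbour. Of their 19 CpG-rich genes, 9 had a peak in both (47.4%, against 44.6% of all CpG-rich genes). Klf genes included some of the higher peaks, with 21.7 and 80.7 for Klf5, 28.3 and 58.0 for Klf13 and 16.6 and 51.6 for Klf6. Sox12, at 35.2 and 64.5, was the highest of the Fox, Sox and Pax genes, but its summits lay outside the promoter region in both replicates.

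Secreted signals and ion channels also had larger shares in neither replicate than the 60.4% of all genes without a coding neighbour. Of 53 Wnt, Fgf and Bmp ligands, 28 were CpG-rich and 46 had a peak in neither, and all 3 with a peak in both, Fgf14, Fgf9 and Wnt5a, lay on chromosome 14. With the summit required inside the region, Wnt5a had a peak in neither and Fgf14 in replicate 1 only. Ligand-gated channel subunits, the receptors for fast neurotransmitters, had 43 of 48 in neither, with Chrna4 alone in both, and 31.2% of them were CpG-rich, near the 35.1% of all genes. Potassium channels and relatives, voltage-gated and inwardly rectifying, had 62 of 87 in neither and 11 in both, and 37.9% were CpG-rich. Among those with a peak in both were the inward rectifier gene Kcnj3 (7.74 and 14.3) and Kcnb2 (8.54 and 11.7). With the summit required inside the region, Kcnb2 kept a peak in replicate 1 only. Regulators of G protein signalling had 5 of 19 in both (26.3%, against 26.2% of all genes), led by Rgs2 (23.9 and 69.8).

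**Figure D3:**
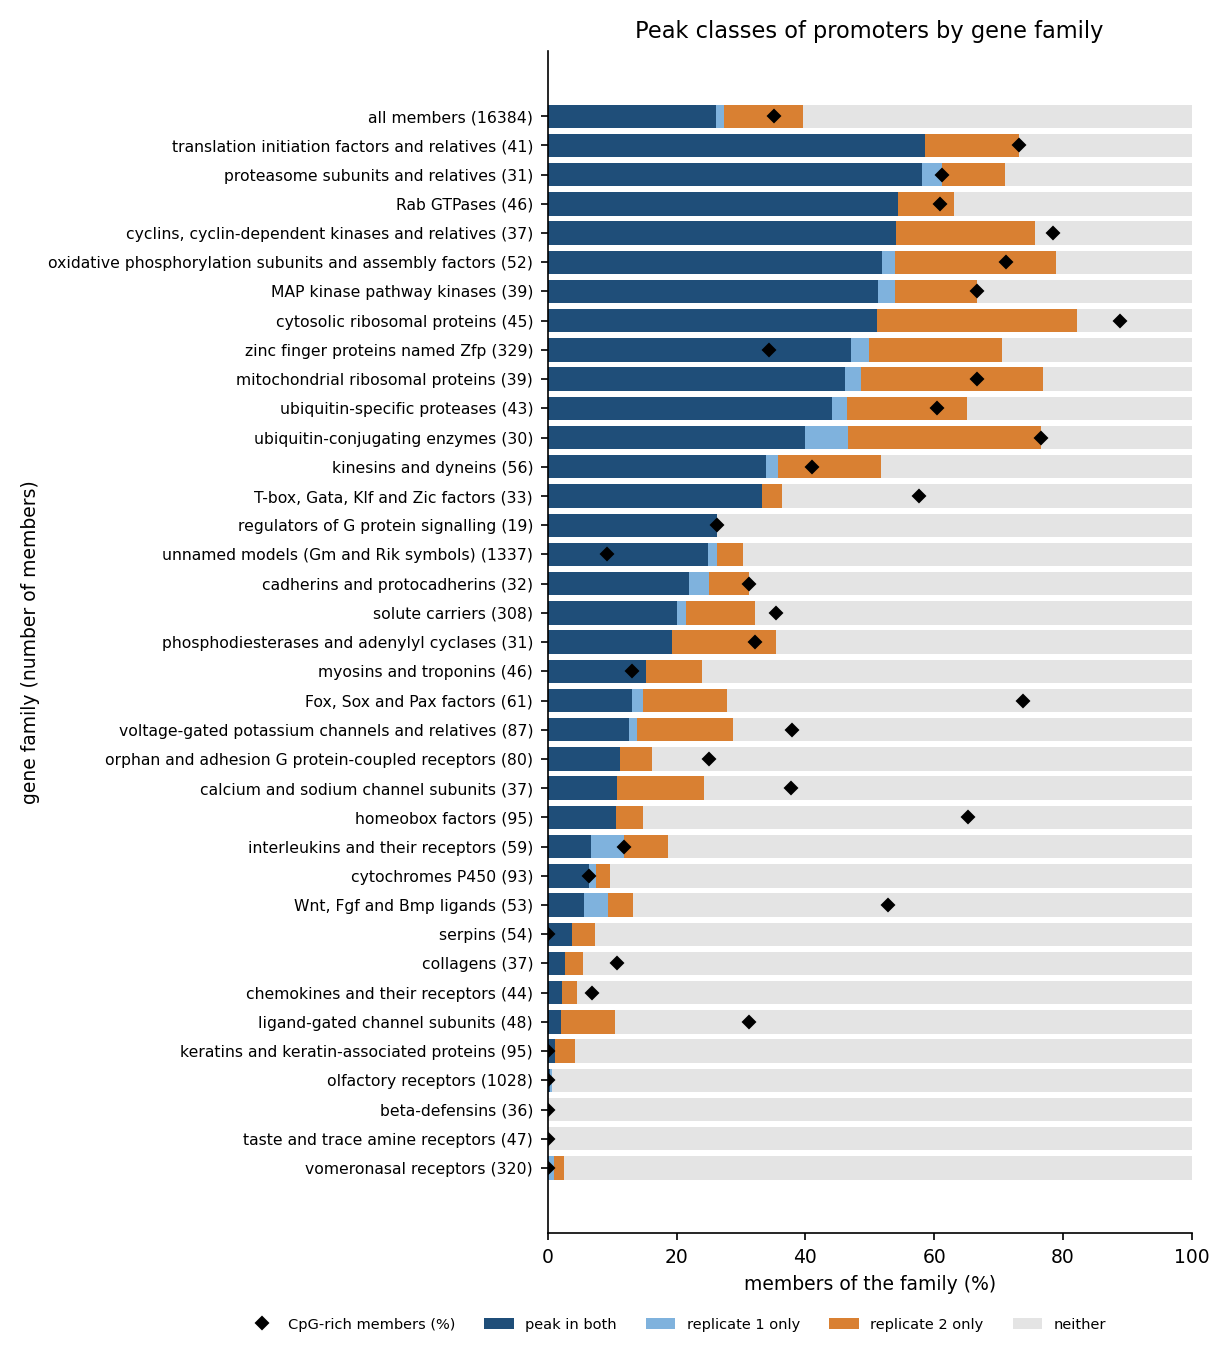
Share of members (%, x axis) with a peak in both replicates, in replicate 1 only, in replicate 2 only or in neither, for each gene family of at least 15 members and for all genes without a coding neighbour (top bar). Numbers in brackets are members, and diamonds mark the share of CpG-rich members. Homeobox and Fox, Sox and Pax factors show diamonds at 65.3% and 73.8% with dark bars of 10.5% and 13.1%, whereas initiation factors and relatives reach 58.5%.

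A list of gonadotrope genes was set beside the label of the cells. It held markers of the lineage and also general signalling genes, such as Smad4 and Gnas. Its share as a whole is therefore no check of the label by markers. Of 38 listed genes, 33 were present and without a coding neighbour, among which 12 had a peak in both replicates (36.4%, against 26.2% of all genes without a coding neighbour), 8 in replicate 2 only and 13 in neither. Of its 18 CpG-rich members, 8 had a peak in both (44.4%, against 44.6% of all CpG-rich genes). Cga had peaks with −log10 q of 11.95 and 36.0, resting on 25 and 50 tags at summits -315 and -264 bp from the TSS, at a CpG ratio of 0.0931. Gnrhr had 9.36 and 18.0, with summits 5 and 13 bp upstream of its TSS. Both are defining genes of the lineage. Other defining genes lacked a peak or had one in replicate 2 only, so the markers as a whole bear on the label only in part.

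The transcription factors of the list were mixed. Isl1 (−log10 q of 4.80 and 26.1), Egr1 (9.36 and 15.2), Otx1 (2.88 and 11.7) and Msx1 (1.79 and 10.8) had a peak in both replicates. The 2 peaks of Msx1 did not overlap: the summit lay 519 bp downstream of the TSS in replicate 1, on 11 tags, and 68 bp upstream in replicate 2. Nr5a1, which encodes steroidogenic factor 1, a factor required for gonadotrope function, had a peak in replicate 2 only, at 4.84, as had Foxl2 at 2.99. Pitx1, Lhx3, Lhx4 and Gata2 had no peak in either list. Smad4, the common mediator of activin and bone morphogenetic protein signals, was the highest of the list, at 14.7 and 41.9.

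Signalling and secretory genes of the list were also divided. Acvr2a, an activin receptor, had peaks of 6.97 and 9.22, and Gnas, a stimulatory G protein subunit, of 4.80 and 7.67. Gnaq and Gna11, which couple the GnRH receptor to phospholipase C, had a peak in replicate 2 only, at 15.2 and 10.8. The secretory granule genes Chgb (4.13 and 12.5) and Scg2 (5.50 and 13.4) had a peak in both, whereas Chga had none. Fshb had no peak in its promoter region in either list, and neither had Inhba or Fst, which encode an activin subunit and its antagonist follistatin. Lhb, the beta subunit of luteinizing hormone, has the coding TSS of Ruvbl2 at 1675 bp and is not among these genes.

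Genes of the early transcriptional response to GnRH and growth factors had a larger share with peaks than all genes without a coding neighbour. Of 41 such genes without a coding neighbour, 27 had a peak in both replicates (65.9%, against 26.2%), 7 in replicate 2 only and 7 in neither. CpG-rich promoters made up 31 of the 41, and 21 of these had a peak in both (67.7%, against 44.6% of all CpG-rich genes). Of the 10 others, 6 did. Since no untreated sample was analysed, these peaks cannot be told apart from peaks present before the pulses.

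The highest early-response peak was that of Rgs2, with a −log10 q of 23.9 and 69.8. It was followed in replicate 2 by Klf6 (16.6 and 51.6), the AP-1 subunit gene Jun (15.7 and 38.3) and Ier5 (11.95 and 38.3). The clock gene Per1 had 12.9 and 31.5, and Klf10 16.6 and 27.2, though the highest Klf10 peaks of the replicates did not overlap. Fos had the modest values of 5.50 and 9.22, on 17 and 23 tags, and Fosb 8.54 and 11.7. Egr2 had 5.50 and 24.0, while Egr3 and Egr4 had a peak in replicate 2 only, at 14.3 and 11.7. Of the phosphatases that switch off MAP kinases, Dusp6 had 6.22 and 21.0, Dusp5 3.49 and 7.67, and Dusp4 had 1.91 in replicate 2 only.

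Among the 27 genes, Zfp36, an RNA-binding protein that destabilizes cytokine mRNAs, was the only one with the higher −log10 q in replicate 1, at 7.74 and 5.51. The 7 genes with a peak in neither replicate were Klf4, Fosl1, Nr4a2, Ptgs2, Csrnp1, Ier2 and Nfil3. Relatives of some of them had a peak in both, such as Fosl2 (13.8 and 18.0) beside Fosl1, and Nr4a1 (6.97 and 10.8) and Nr4a3 (7.74 and 21.0) beside Nr4a2.

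**Figure D4:**
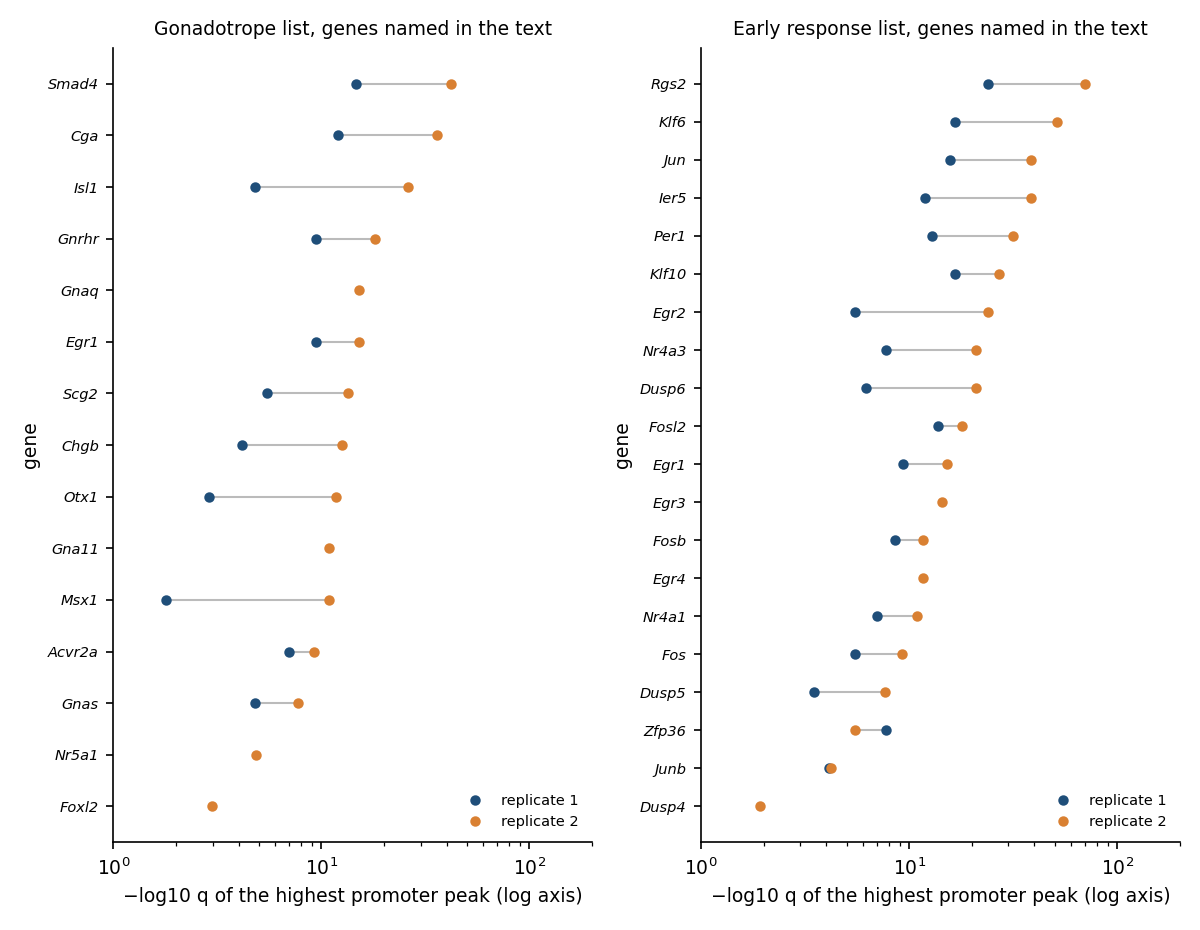
The −log10 q of the highest promoter peak (x axis, log scale) in replicate 1 (blue) and replicate 2 (orange) for the genes with a peak that the text names from the gonadotrope list (left) and the early-response list (right). A grey line joins the replicates of a gene, and a lone orange point has no peak in replicate 1. Values run from 1.79 for Msx1 in replicate 1 to 69.8 for Rgs2 in replicate 2.

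Genes of the other pituitary lineages had almost no promoter peaks. None of the 20 listed genes had a peak in both replicates, and 18 had one in neither (against 26.2% and 60.4% of all genes without a coding neighbour), including Gh, Prl, Pomc, Tshb and Pou1f1, which define somatotropes, lactotropes, corticotropes and thyrotropes. The prohormone convertase gene Pcsk2 (6.93) and the neuroendocrine factor gene Insm1 (10.0) had a peak in replicate 2 only. CpG-rich promoters made up 8 of the 20, of which 6 had a peak in neither, and the other 12 were of the class that is not CpG-rich, with 75.2% in neither over all its genes. Of 36 marker genes of other organs, of which 32 were not CpG-rich, 35 had a peak in neither, and Mbp, known from myelin, had one in both, at 4.80 and 6.93.

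The highest peaks of all belonged to unnamed gene models in repeated sequence. Gm10800 on chromosome 2 had a −log10 q of 66408 and 77703, on 19675 and 22997 tags at a summit whose 50 bp occur 18 times in the genome. Gm21738 (23516 and 28095) on chromosome 14 and Gm10801 (10415 and 11910) on chromosome 2 followed, with 14 and 2 copies. Gm20594 on chromosome 6 (962 and 874) had a summit that occurs once, and the next 4, Gm10354, Gm9758, Gm17019 and Gm21083, all lay on chromosome 5 with 3 to 16 copies. Reads from repeated sequence cannot be assigned to 1 copy, so these values cannot be given to 1 gene.

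Among single-copy summits, named genes followed Gm20594. Chosen after their values were seen, they included Hjurp, a chaperone that loads the centromeric histone (−log10 q of 122 and 277), Sfi1, a centrosomal protein (111 and 191), Pcmtd1 (85.9 and 199) and Ppp2r1a, a scaffold subunit of protein phosphatase 2A (81.5 and 179). The peaks over Hjurp and Sfi1 were 6030 and 15793 bp wide in replicate 1, far wider than the median of 403 bp, whereas those of Pcmtd1 and Ppp2r1a were 1131 and 1251 bp wide.

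Promoters with almost no CpG and a peak in both replicates were mainly repeats. Of 226 genes below a CpG ratio of 0.2, 136 lay on chromosome 14, 129 of these being unnamed Gm models, and 34 had single-copy summits in both replicates. The 6 lowest were 4931408C20Rik, Gm10377, Gm47189, Gm9732, Gm2310 and Gm3486, the first 4 without a single CG in their regions. All unnamed Gm and Rik models together had 332 of 1337 members with a peak in both (24.8%, against 26.2% of all genes without a coding neighbour). Of these 332, 247 had a multi-copy summit.

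The 34 with single-copy summits included Cga and several other named genes. Trim21, a cytosolic antibody receptor, had a −log10 q of 23.9 and 37.2 at a ratio of 0.158, and Fam111a, a protease that restricts viruses, 23.9 and 58.0 at 0.162. Spink4, a secreted protease inhibitor of the gut, had 10.2 and 39.5 at 0.0998. Klk1, tissue kallikrein, had 6.22 and 10.0 at 0.0447. These 4 were likewise chosen after their values were seen.

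By contrast, 1901 CpG-rich genes (33.0%) had a peak in neither replicate. The 6 with the highest ratio, from 1.08 to 1.11, were Klf14, Cnot6, a deadenylase of the CCR4-NOT complex, Fign, a microtubule-severing enzyme, Dock8, a guanine nucleotide exchange factor of immune cells, Bves, a membrane protein of muscle, and Bmp2, a bone morphogenetic protein. The region of Fign held 89 CG dinucleotides, the fewest of the 6, and that of Bmp2 held 100. Other coding TSSs were far away, the closest being 37933 bp from Dock8.

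The share of promoters with a peak differed between chromosomes in both replicates. Of CpG-rich genes, 66.7% on chromosome 14, 65.5% on chromosome 17, 63.5% on chromosome 16 and 61.1% on chromosome 1 had a peak in both. On chromosomes 10, 13 and 8 the shares were 28.1%, 25.1% and 21.6%. Replicate 1 ranged from 68.1% on chromosome 14 to 21.9% on chromosome 8, and replicate 2 from 83.1% on chromosome 16 to 48.6% on chromosome 13. Across the 19 chromosomes the replicates had a Pearson r of 0.985 and a Spearman rho of 0.972, a description of 2 libraries from 1 cell line. With single-copy summits in both, chromosomes 14 and 8 kept 60.3% and 21.3%.

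Peaks far from any annotated TSS, which may lie inside long genes, moved with these shares. Single-copy peaks more than 10 kb from any annotated TSS numbered 11.1 per Mb on chromosome 14 and 0.839 per Mb on chromosome 13 in replicate 1, and 10.4 and 1.24 in replicate 2. Across the 19 chromosomes, the share of CpG-rich genes with a peak and the density of distal peaks had a Spearman rho of 0.940 in replicate 1 and 0.870 in replicate 2, with Pearson r of 0.767 and 0.765. Both measures of a chromosome come from the same library. The median tag count at single-copy summits of CpG-rich genes was 23 and 35 on chromosome 14, 16.5 and 24 on chromosome 13 and 19 and 22 on chromosome 8. The part of the chromosome-wide level in the promoter classes was not tested.

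Several named genes lay on chromosomes of low shares. Pitx1, Fst, Inhba and Nfil3, all without a peak, are on chromosome 13, and Ier2 is on chromosome 8. Klf6 and Isl1, however, are on chromosome 13 and had a peak in both replicates, and Junb, on chromosome 8, had one of 4.13 and 4.19.

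**Figure D5:**
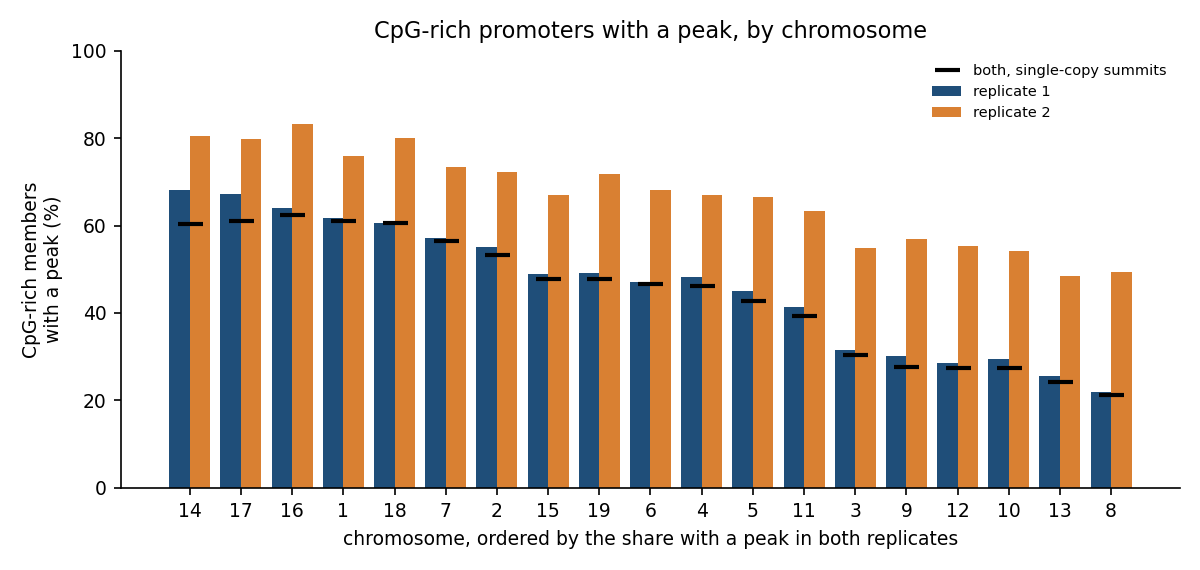
Share of CpG-rich genes without a coding neighbour that had a peak (%, y axis) in replicate 1 (blue bars) and replicate 2 (orange bars), by chromosome (x axis), ordered by the share with a peak in both. Black marks give the share with a peak in both whose summits were single-copy, highest at 62.4% on chromosome 16 and lowest at 21.3% on chromosome 8.

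Short sequence motifs were counted from 200 bp upstream to 100 bp downstream of the most upstream TSS, on both strands. None of the motifs contains another. The GC box GGGCGG, bound by SP1 family factors, was present in 46.1% of all coding promoters, in 64.3% of the genes with a peak in both and in 31.4% of those with neither. Among CpG-rich genes, however, it was as common with a peak in both as without, at 75.1% and 75.6%. The ETS motif CCGGAAG (11.7% of all coding promoters) and the CCAAT box bound by NFY (37.2%) differed within the CpG-rich genes. CCGGAAG was present in 21.1% of those with a peak in both and 10.3% of those with neither, and CCAAT in 44.0% and 27.4%.

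The cyclic AMP response element TGACGTCA, found in 2.41% of all coding promoters, was present in 4.68% of the CpG-rich genes with a peak in both and 2.79% of those with neither. The corresponding shares were 6.86% and 3.52% for GCATGCGC, the NRF1 core (3.499% of all coding promoters), 5.26% and 3.21% for AAGATGGC, the YY1 core (3.41%), and 10.7% and 8.995% for the E-box CACGTG (7.73%). The CTCF core CCACNAGG, at 5.56% of all coding promoters, had 5.93% and 4.47%. Among genes that were not CpG-rich its order was the reverse, at 4.86% and 5.65%.

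The TATA box TATAAA, in 11.5% of all coding promoters, went the other way among genes that were not CpG-rich, with 5.33% of those with a peak in both and 19.6% of those with neither. The AP-1 motif TGACTCA (4.21% of all coding promoters) was present in 3.36% and 6.25% of the same groups, and TGACCTTG, the motif of steroidogenic factor 1 (1.37%), in 1.45% and 1.84%. Among CpG-rich genes the gaps were smaller. With a peak in both and in neither, the shares were 4.68% and 6.31% for TATAAA and 2.14% and 2.52% for TGACTCA. For TGACCTTG they were 0.741% and 0.736%. The part of GC content in these shares was not tested. A match gives the letters only and is not a site shown to be bound.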

How the data were processed

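Chromatin accessibility was measured in 2 replicate samples of 1 group. The authors mapped reads to GRCm38 with Bowtie2, discarded duplicates and ran MACS2 on each replicate, with 200 bp extension and the genome size preset of the fruit fly. Tool versions are not given in the sources used here. For each peak the authors deposited a score, a fold enrichment ratio at the summit, a −log10 p-value and a −log10 q-value, beside start, end and summit. Read totals were not used here. The deposited fold and p-values fitted 1 constant background per list, 3.05 and 3.54 tags, from which the tags at each summit were computed.

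TSSs, regions, classes, sequence measures and the number of genome copies of the 50 bp around each summit were computed with Python 3.11.15, numpy 2.4.6 and pandas 2.3.3. The scripts were checked on simulated data and recovered 100% of the values set for membership, class, CpG count and summit offset over 2000 entries. No test was run. The alternatives varied the region, the peak threshold, summit placement and copy number, the distance limit and the choice of TSS, and left out each replicate.

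Members, families, lists and motifs were chosen with earlier results of these data known. Genes were named by rule: members of the gene lists, the 8 of highest mean rank by peak strength, 6 at each CpG extreme, those nearest the distance limit, and up to 3 of the less common class in each family of at least 15 members. Genes named otherwise are marked as such. Peaks outside chromosomes 1 to 19 were left out. Gene expression measurements were not analysed here. Some genes met the naming rule and are not reported here.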

Additional observations from a re-analysis of the deposited data

How the results depend on the processing

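Of 195 comparisons of 17 results with an alternative, 147 moved by less than the spread between replicates (for counts, stayed within 1.5 times). A further 48 moved more, and 0 reversed. Leaving out a replicate always counts as unmoved here, because each of 2 values lies within their SD of the mean. Counts and shares have no sign to change, so that only differences and summit offsets could reverse. With a −log10 q of at least 5, 2834 genes had a peak in both, and the mean share with a peak was 24.7% for all genes without a coding neighbour, 0.179% for chemosensory receptors, 13.0% for developmental factors, 62.2% for the early-response list and 1.39% for markers of other organs. At 10 or more, 1546 genes had a peak in both (mean share 16.3%). The differences then were 0.258 in CpG ratio and 4.34 points in GC content between genes with and without a peak, 19.1 points between CpG classes and 13.4 points from genes with a neighbour. The mean shares were 0.108% for chemosensory receptors, 32.0% for housekeeping complexes, 9.26% for developmental factors, 24.2% for the gonadotrope list, 40.2% for the early-response list and 0% for markers of other organs. With the 20000 highest peaks of each list, 2837 genes had a peak in both (mean share 23.3%), the difference from genes with a neighbour was 17.7 points, and the shares were 0.179%, 46.6%, 11.6%, 61.0% and 1.39% for chemosensory receptors, housekeeping complexes, developmental factors, early response and other organs. Regions of 250 bp each side gave a GC difference of 7.22 points and 0.430% for chemosensory receptors, and regions of 1000 bp gave 3.11 points, 0.968% and a CpG difference of 0.268. Chemosensory receptors had 0.466% with summits inside the region and 0.215% with single-copy summits. A distance limit of 1 kb gave a difference of 34.0 points from genes with a neighbour and 2.63% for other organs, and 10 kb gave 10.9 points and 3.45%. Genes with 1 TSS numbered 1281 in both, 618 in 1 replicate and 4283 in neither, with differences of 0.451 and 7.99 points, shares of 1.06% for chemosensory receptors, 11.5% for developmental factors and 0% for other organs, and a median summit at -27.5 bp. The most upstream TSS alone gave 0.412 and 7.14 points. The cause of these movements was not tested.

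Of 212 named genes, 122 kept their class under the alternatives that could be applied to them, among them 41 of 118 with a peak in both. Most alternatives can only remove peaks, so that genes in neither could hardly change class. No paired analysis was possible because there is 1 group of samples. Depth limits the neither class: a summit below 10 or 11 tags is in no list.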
